A study of Mus musculus with 9 samples.

Results

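The 9 genes described here carry out and control the handling of iron in the cell: uptake (Tfrc, Trf, Slc11a2), storage (Fth1, Ftl1), export (Slc40a1), the hormone that limits export (Hamp) and the RNA-binding regulators of these transcripts (Aco1, Ireb2). They were chosen by symbol, with earlier results of these data known. They are 9 of the 13890 genes with a symbol in the table of raw counts, and all 9 passed the filter on low counts. RNA of the heart was sequenced in 9 male NSG mice, a strain without functional T, B and natural killer cells. The mice were 8 weeks old at injection and were taken about 3 weeks later. S mice were sham operated, T mice received HCT116 cells, an established human colorectal cancer line, into the spleen, and A + T mice received the same cells and were treated with ACVR2B/Fc, a soluble receptor that traps activins and related ligands. Each group held 3 animals, named by their animal numbers: 2, 3 and 5 in S, 11, 12 and 15 in T, and 20, 21 and 22 in A + T.

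Several libraries stood apart. Gene by gene, fold changes between the T and S libraries were nearly identical to the column headed ACVR2B vs sham in the study's gene list, and not to the column headed HCT vs sham. An exchange of sample labels and an exchange of column headings cannot be told apart here, so the group is called by its label throughout. The study also kept sham-operated mice treated with ACVR2B/Fc, a group that no library label names. Whether the T libraries came from such mice, without tumour, was not tested. Every comparison with T, and its reading as a group of tumour hosts, rests on that label. Airway and lung markers (4 of 6 listed, up to 2 at 0 in a library) summed to 0.497 to 3.2 CPM (TMM-normalised counts scaled to the library size) in 7 libraries, to 167 in T 12 and to 1280 in A + T 22. Their make-up differed. T 12 held Scgb1a1 at 79.9, Bpifa1 at 62.6, Scgb3a1 at 23.4 and Sftpb at 0.594 CPM. A + T 22 held Scgb1a1 at 1080, Bpifa1 at 0, Scgb3a1 at 0.431 and Sftpb at 199 CPM. Atrial markers (6 of 6 listed, none at 0) summed to 3150 to 3210 CPM in S, 875 to 4780 in T and 811 to 2160 in A + T. Adipocyte markers (3 of 5 listed, none at 0) summed to 28.4 CPM in T 12 and to 0.359 to 9.47 elsewhere. Markers of cardiomyocytes (5 of 5 listed, none at 0) were abundant in every library, at 51600 to 57800 CPM in S, 39200 to 48100 in T and 35300 to 51400 in A + T. The libraries held 12392222 to 19732471 counts, of which the ribosomal gene Rn45s took 4.57 to 19.6%.

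Iron enters most cells bound to transferrin, which the transferrin receptor takes into endosomes, and it is kept in ferritin shells built of heavy and light chains. When iron is scarce, the iron regulatory proteins bind hairpins called iron-responsive elements (IREs): bound in the 5′ untranslated region (UTR) they block translation, as in the ferritins, and bound in the 3′ UTR they protect the transcript, as in Tfrc. Heart muscle depends on this supply for its mitochondrial heme and iron-sulfur enzymes, and both too little and too much iron harm it.

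IREs are shown because they are the sequence feature that the regulators in this set bind, and 4 of the 9 members hold a match to it. The UTRs of GENCODE M21 transcripts (GRCm38) were searched on the transcript strand for a C, 5 bases, CAGTG and 6 further bases, with 5 pairs in the upper stem, G-U pairs allowed, and a last loop base other than G. A match was found in the 5′ UTR of 23 of 20582 genes (0.112%) and in the 3′ UTR of 100 of 20978 (0.477%). A match is a description of the letters and not of binding. Capitals mark the 6 bases of the loop, which every match shares apart from its last base. The 4 matches of Tfrc lie in exon 19, in the 3′ UTR, at chr16:32631219-32631247, chr16:32631598-32631626, chr16:32631663-32631691 and chr16:32631710-32631738 on the plus strand. Those of Fth1 (chr19:9982732-9982760, plus), Ftl1 (chr7:45459779-45459807, minus) and Slc40a1 (chr1:45925465-45925493, minus) lie in the 5′ UTR, 115, 153 and 207 bases before the coding sequence.
Tfrc 1: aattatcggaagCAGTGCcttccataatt
Tfrc 2: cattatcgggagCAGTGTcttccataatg
Tfrc 3: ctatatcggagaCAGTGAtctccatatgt
Tfrc 4: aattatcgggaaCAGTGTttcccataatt
Fth1: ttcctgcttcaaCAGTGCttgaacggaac
Ftl1: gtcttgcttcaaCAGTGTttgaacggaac
Slc40a1: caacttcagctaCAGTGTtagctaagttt

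Of these 4 transcripts, Tfrc and Slc40a1 were lower and Fth1 higher in the libraries labelled T than in S, while Slc40a1 was higher in A + T than in T, and Fth1 and Ftl1 were higher in A + T than in S. By edgeR's quasi-likelihood test with Benjamini-Hochberg adjustment over 13364 genes, 3 of the 9 iron genes passed an adjusted P-value of 0.05 in T vs. S, against 21.2% of all genes: 1 was higher (10.3% of all genes) and 2 were lower (11%). For A + T vs. T 1 of 9 passed, against 5.88% of all genes, and it was higher (3.09% higher and 2.79% lower among all genes). For A + T vs. S 2 of 9 passed, against 8.31%, and both were higher (4.67% higher and 3.64% lower among all genes). The study's thresholds, a change of 1.5-fold or more with P below 0.05 before adjustment, took 2, 2 and 1 of the 9 in these comparisons, against 14.2%, 8.1% and 8.91% of all genes. The genes whose groups did not overlap were the 3, 1 and 2 called ones, and groups did not overlap for 42.6%, 25.4% and 32.4% of all genes. In whole hearts, fewer cells of a type and less RNA per cell cannot be told apart.

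**Figure D1:**
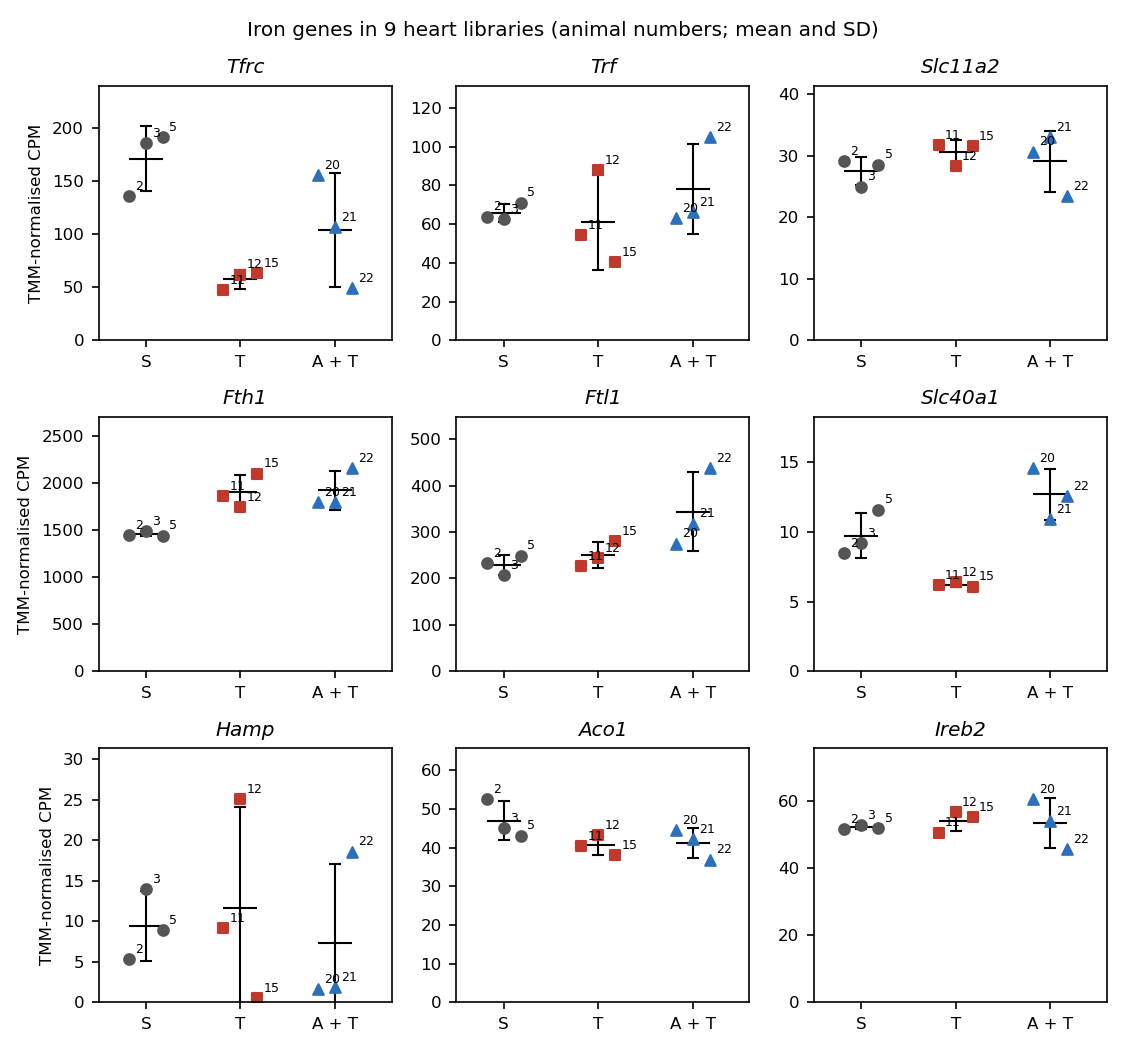
TMM-normalised CPM (vertical axes, from 0) of the 9 iron genes in S (grey circles), T (red squares) and A + T (blue triangles), with animal numbers, group mean and SD (n = 3; for Hamp the SD reaches below 0 and is cut at the axis). Tfrc is at 47.4 to 63.8 CPM in T and at 136 to 192 in S.

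Tfrc (chr16:32608920-32632794), the receptor that imports transferrin-bound iron, was at 136, 186 and 192 CPM in S 2, 3 and 5, at 47.4, 62.1 and 63.8 in T 11, 12 and 15, and at 156, 107 and 49 in A + T 20, 21 and 22. Every T library lay below every S library, while the A + T libraries spread from the S range down to the lower end of T. Tfrc was 2.97-fold lower in T than in S (log2 fold change -1.57, SE 0.33, edgeR adjusted P = 0.00804), and it passed without each of the 9 animals in turn. Neither other comparison passed: against T, A + T was at 0.85 on the log2 scale (SE 0.33, edgeR adjusted P = 0.159), and against S at -0.72 (SE 0.32, edgeR adjusted P = 0.189). The value of A + T vs. T turned on A + T 22, the library with the highest airway markers: without it the log2 fold change was 1.19 and passed (edgeR adjusted P = 0.00611). Without A + T 20, the log2 fold change of A + T vs. S was -1.14 and also passed (edgeR adjusted P = 0.0465). A + T 22 also had the lowest summed cardiomyocyte markers, at 35300 CPM against 50000 and 51400 in A + T 20 and 21. These sums were 39200 to 48100 CPM in T, below the 51600 to 57800 of S. The 5 markers did not move together: in T vs. S 1 was called higher (Tnnt2) and 1 lower (Actc1). The part of airway material and of cardiomyocytes in these values was not tested.

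Erythroid precursors carry much transferrin receptor, so Alas2, their enzyme of heme synthesis, is given beside Tfrc. It was at 143, 70.8 and 147 CPM in S, at 135, 284 and 120 in T and at 68.4, 283 and 341 in A + T 20, 21 and 22. The A + T library with the lowest Tfrc, A + T 22, had the highest Alas2, and its part in the level of Tfrc was not tested.

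Trf (chr9:103204001-103230444), transferrin, the iron carrier of plasma, was at 63.9, 62.5 and 71.1 CPM in S, at 54.2, 87.9 and 40.5 in T 11, 12 and 15, and at 62.9, 66.3 and 105 in A + T 20, 21 and 22. The highest values of T and A + T were those of T 12 and A + T 22, the 2 libraries with airway markers, and the groups overlapped. With all libraries, Trf passed in no comparison (log2 fold change in T vs. S -0.11, SE 0.26, edgeR adjusted P = 0.804). Without T 12 and A + T 22, an alternative chosen after seeing the data, Trf was lower in T than in S (log2 fold change -0.46, edgeR adjusted P = 0.018). In T vs. S it passed in 0 of the 9 fits without 1 animal, the fit without T 12 among them.

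Slc11a2 (chr15:100387898-100425072), the divalent metal transporter that moves iron out of endosomes, ranged from 25 to 29.2 CPM in S, 28.3 to 31.8 in T and 23.5 to 33.1 in A + T. Its groups overlapped, and it passed in no comparison. Its log2 fold changes were 0.15 in T vs. S (SE 0.13, edgeR adjusted P = 0.437), -0.07 in A + T vs. T and 0.07 in A + T vs. S.

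Fth1 (chr19:9980598-9985098), the ferritin heavy chain, which oxidises iron for storage, was at 1450, 1490 and 1440 CPM in S, at 1860, 1740 and 2100 in T and at 1800, 1800 and 2160 in A + T. The S libraries lay within 1440 to 1490 CPM, below every library of the other groups, and T and A + T overlapped. Fth1 was 1.3-fold higher in T than in S (log2 fold change 0.38, SE 0.11, edgeR adjusted P = 0.0266) and 1.32-fold higher in A + T than in S (0.40, SE 0.11, edgeR adjusted P = 0.0441). Against T, A + T was at 0.02 on the log2 scale, which did not pass (edgeR adjusted P = 0.95). Both calls were near the threshold: T vs. S passed in 4 of the 9 fits without 1 animal and A + T vs. S in 2, and with scaling by library size only the adjusted P-values were 0.147 and 0.157. Of 1336 genes of about the same length, 15.1% lay above Fth1 in T vs. S and 14.4% in A + T vs. S, with medians of 0.03.

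Ftl1 (chr7:45457944-45459884), the ferritin light chain, which helps the shell take up its iron core, was at 233, 207 and 249 CPM in S, at 226, 243 and 281 in T and at 275, 318 and 438 in A + T. A + T lay above S without overlap, and T overlapped both. Ftl1 was 1.49-fold higher in A + T than in S (log2 fold change 0.58, SE 0.16, edgeR adjusted P = 0.04998). The call of Ftl1 was on the threshold: it passed in 1 of the 9 fits without 1 animal, and without T 12 and A + T 22 the log2 fold change was 0.37 (edgeR adjusted P = 0.0598). Not past the threshold were T against S, at 0.12 on the log2 scale (edgeR adjusted P = 0.63), and A + T against T, at 0.46 (edgeR adjusted P = 0.118).

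The ferritin genes have processed copies elsewhere in the genome, and reads that match a copy equally well are lost when only unique pairs are counted, so their levels are uncertain. The ratio of Fth1 to Ftl1 CPM was 6.2, 7.16 and 5.76 in S, 8.23, 7.15 and 7.48 in T and 6.55, 5.67 and 4.92 in A + T. Tfrc stood at 9.39, 12.5 and 13.4% of the Fth1 CPM in S, at 2.55, 3.57 and 3.04% in T and at 8.67, 5.93 and 2.27% in A + T. This ratio was lower in every T library than in every S library, and A + T 22 fell below all of T.

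**Figure D2:**
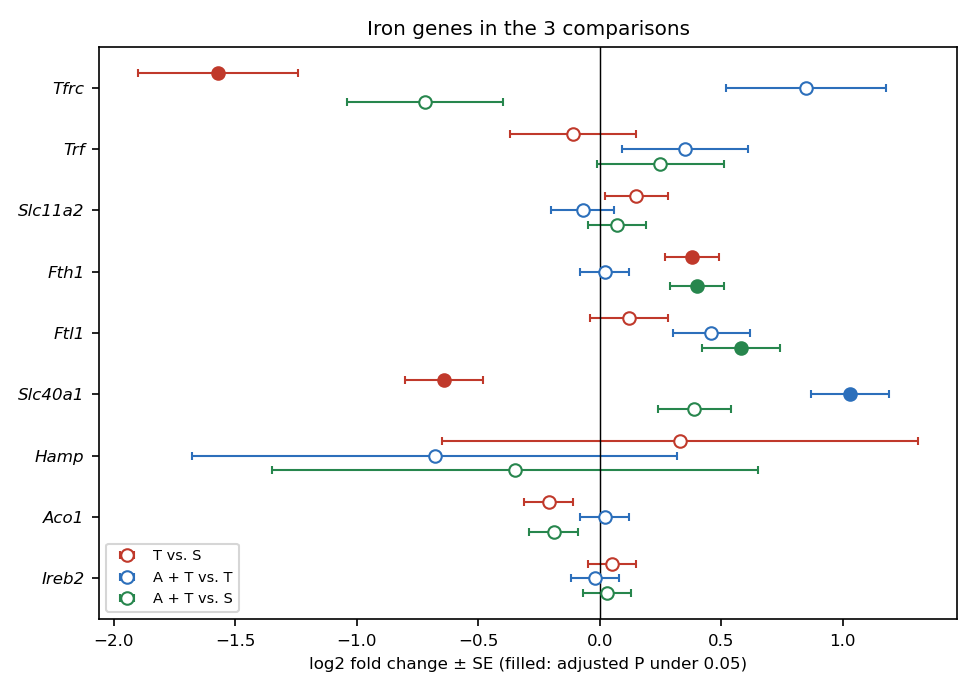
log2 fold change ± SE (horizontal axis) of the 9 iron genes in T vs. S (red), A + T vs. T (blue) and A + T vs. S (green), filled where edgeR's adjusted P-value was under 0.05. Tfrc at -1.57 in T vs. S and Slc40a1 at 1.03 in A + T vs. T lie farthest from 0 among the filled points.

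Slc40a1 (chr1:45908068-45926523), ferroportin, the known exporter of iron from cells, was at 8.46, 9.18 and 11.6 CPM in S, at 6.19, 6.42 and 6.08 in T and at 14.6, 10.9 and 12.6 in A + T. The T libraries lay within 6.08 to 6.42 CPM and below every other library, while S and A + T overlapped between 10.9 and 11.6 CPM. Slc40a1 was 1.56-fold lower in T than in S (log2 fold change -0.64, SE 0.16, edgeR adjusted P = 0.017) and 2.04-fold higher in A + T against the same libraries (1.03, SE 0.16, edgeR adjusted P = 0.00754). The second call passed without each of the 9 animals in turn. The first was lost without S 5 (edgeR adjusted P = 0.0629) and without T 11 (0.0577). Compared with S, A + T had a log2 fold change of 0.39 (SE 0.15, edgeR adjusted P = 0.135).

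Macrophages, which recycle the iron of red cells, express ferroportin strongly, and their markers differed between the groups. The 10 macrophage markers (10 of 10 listed, none at 0) summed to 278 to 299 CPM in S, 300 to 337 in T and 386 to 465 in A + T, and 5 of 10 were called higher in A + T than in T, against 3.09% of all genes, and 0 lower. Mrc1, the mannose receptor of resident macrophages, did not pass and lay at 46 to 47.8 CPM in T and at 51.1, 31.5 and 31 in A + T. Csf1r, the receptor for macrophage colony stimulating factor, was at 35.7, 38.9 and 38.3 CPM in T and at 84.9, 68.5 and 58.9 in A + T. Slc40a1 stood at 18.9, 25.5 and 26.9% of the Csf1r CPM in S, at 17.3, 16.5 and 15.9% in T and at 17.2, 15.9 and 21.4% in A + T. On that scale T and A + T overlapped, whereas all S libraries lay above T. As a share of the summed 10 markers, Slc40a1 was at 2.99, 3.31 and 3.9% in S, at 2.06, 1.9 and 1.98% in T and at 3.15, 2.83 and 2.9% in A + T, where T lay below both other groups without overlap. The overlap of T and A + T thus depended on the marker used as the scale. The part of macrophages in the change of Slc40a1 was not tested.

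**Figure D3:**
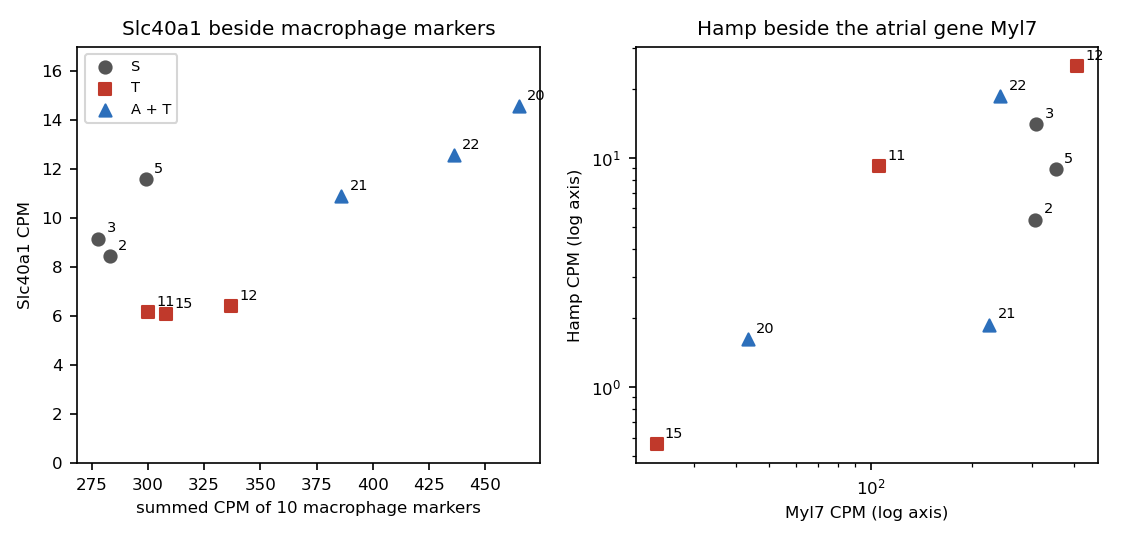
Left, Slc40a1 CPM against the summed CPM of 10 macrophage markers; right, Hamp CPM against the CPM of the atrial gene Myl7, both on log axes. Points are libraries with their animal numbers, in S (circles), T (squares) and A + T (triangles). A + T lies to the right of S and T on the left, at 386 to 465 CPM, and T 15 has the lowest Hamp and Myl7 on the right.

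Hamp (chr7:30942368-30944032), hepcidin, the peptide that binds ferroportin and has it degraded, was at 5.36, 14 and 8.89 CPM in S 2, 3 and 5, at 9.17, 25.1 and 0.561 in T 11, 12 and 15, and at 1.61, 1.87 and 18.6 in A + T 20, 21 and 22. These are 97, 276, 123, 148, 422, 6, 26, 26 and 302 counts. The groups overlapped, and the spread within T and within A + T was wider than any difference of the means. Its highest value was 44.7 times its lowest, a wider range than that of 99.5% of the genes tested. Hamp passed in no comparison (log2 fold change in T vs. S 0.33, SE 0.98, edgeR adjusted P = 0.839).

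The libraries differed in the levels of their atrial markers, and Myl7, the atrial light chain gene, is given beside Hamp. Myl7 was at 308, 310 and 354 CPM in S, at 106, 410 and 23.2 in T and at 43.3, 225 and 242 in A + T. Bmp10, another of the 6 atrial markers, did not follow Myl7. In S it was at 66.1, 158 and 91.8 CPM. In T 11, 12 and 15 it was at 1.86, 1.13 and 1.78 CPM, and in A + T 20, 21 and 22 at 0.247, 0.359 and 51.5. Hamp and Myl7 were both lowest in T 15 and both highest in T 12. The highest Hamp values of T and A + T were those of T 12 and A + T 22, the libraries with airway markers, and without them the log2 fold change of A + T vs. S moved from -0.35 to -2.44 (edgeR adjusted P = 0.0698). As a share of the Myl7 CPM, Hamp still ranged from 0.829% in A + T 21 to 8.65% in T 11. Liver is the main source of hepcidin. Its markers (7 of 7 listed, up to 2 at 0 in a library) summed to 20.2 to 31.3 CPM in S, 12.1 to 23 in T and 6.31 to 24.5 in A + T. They did not move together: Ahsg was highest in T 12 and A + T 22 (21.4 and 20.1 CPM), where Alb was at 0.178 and 2.4. In S, Alb was at 4.27 to 12.4 CPM. The part of atrial, airway and liver material in the spread of Hamp was not tested.

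Aco1 (chr4:40143081-40198338), which serves as iron regulatory protein 1 when it lacks its iron-sulfur cluster, was at 52.6, 45 and 43.1 CPM in S, at 40.4, 43.3 and 38.1 in T and at 44.6, 42.2 and 36.9 in A + T. T overlapped S only at 43.1 to 43.3 CPM. Its log2 fold change in T vs. S was -0.21 (SE 0.1, edgeR adjusted P = 0.173), and it passed in no comparison.

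Ireb2 (chr9:54863789-54912530), iron regulatory protein 2, which is degraded when iron is plentiful, was at 51.6, 52.7 and 51.9 CPM in S, at 50.5, 56.6 and 55.1 in T and at 60.5, 53.8 and 45.6 in A + T. All groups overlapped. Its highest value was 1.33 times its lowest, a range wider than that of 20.3% of the genes tested, and its log2 fold changes were 0.05 in T vs. S, -0.02 in A + T vs. T and 0.03 in A + T vs. S (SE 0.1 each). RNA levels do not show the binding activity of either regulator, which is set on the protein.

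**Figure D4:**
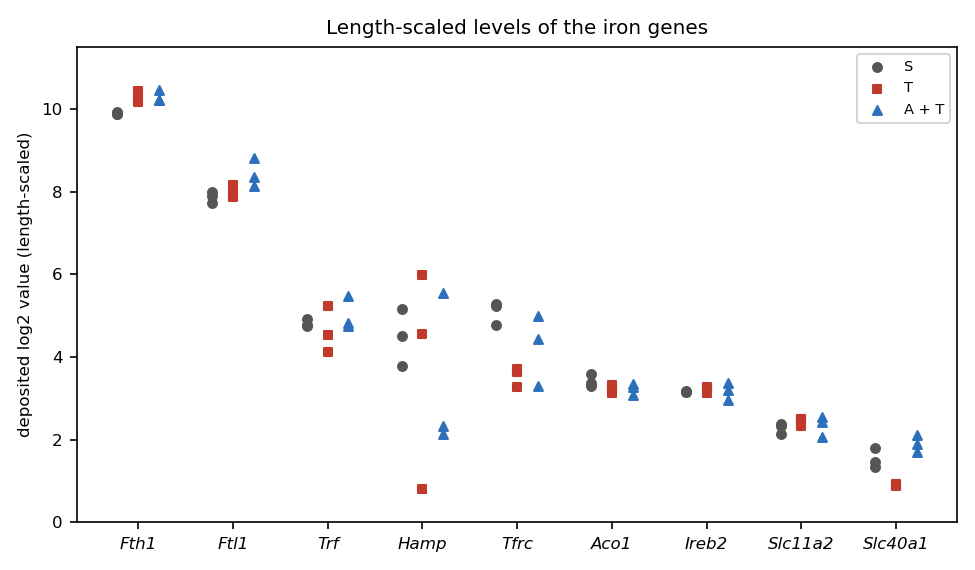
Deposited log2 values (vertical axis), which behave as scaled by gene length, of the 9 iron genes in S (circles), T (squares) and A + T (triangles), ordered by median. Fth1 has a median of 10.21 and Slc40a1 of 1.45, and the Hamp points span 0.8 to 5.99.

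Levels of different genes were compared on the deposited log2 values. Their normalization is not given in the sources used here, but each gene's constant difference from log2 CPM rose with its longest GENCODE M21 transcript (Spearman rho 0.844 across 12888 genes, which are not independent replicates), so they were read as scaled by gene length. Fth1 had the highest median over the 9 libraries, at 10.21, followed by Ftl1 at 8.00, and neither range overlapped that of another member. Trf (median 4.77), Hamp (4.51) and Tfrc (4.43) followed, with ranges that overlapped each other. Aco1 (3.31) and Ireb2 (3.18) overlapped too, and Slc11a2 (2.37) and Slc40a1 (1.45) were lowest, although Hamp fell to 0.8 in T 15. Both storage genes exceeded the export gene in every library.

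The genes most like each called member were named by Pearson correlation over the 9 libraries, which share their groups and scaling, as a description. For Tfrc they were Mdga1 (r = 0.974), Clcn3 (0.974) and Tet1 (0.972). For Fth1 they were Pdcd5 (0.992), Supt4a (0.991) and Tpt1 (0.987), and for Ftl1 Fbxo33 (0.975), Ripk4 (0.972) and Snx33 (0.954). For Slc40a1 they were Fcrls (0.979), Dcaf4 (0.964) and Unc93b1 (0.949).

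Other genes of iron and heme handling, 92 of 102 with counts that were tested, were called in T vs. S in 21 cases (22.8%, 10 higher and 11 lower), close to the 21.2% of all genes, with a median of 0.03 on the log2 scale. For A + T vs. T 5 of 92 (5.43%) were called and for A + T vs. S 7 of 92 (7.61%), against 5.88% and 8.31% of all genes. Among them, genes of iron transport were called most often in T vs. S, in 8 of 19 cases (42.1%), 4 higher and 4 lower. These lists too were chosen with earlier results of these data known, so their shares are a description only.

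Of the 19 genes of iron and heme transport, Lcn2, lipocalin 2, which binds iron-carrying siderophores, rose most in T vs. S (log2 fold change 2.52, edgeR adjusted P = 0.00244). Cp, ceruloplasmin, the ferroxidase that works with ferroportin, rose in T vs. S (0.60, edgeR adjusted P = 0.003952) and fell in A + T vs. T (-0.67, edgeR adjusted P = 0.009553), the latter lost without T 11 (0.0546). Slc39a14, a transporter of iron not bound to transferrin, rose in T vs. S (0.50, edgeR adjusted P = 0.01595), a call lost without S 3, S 5 or T 11 (up to 0.0688), and fell in A + T vs. T (-0.77, edgeR adjusted P = 0.008398). Steap4, a metalloreductase, fell in T vs. S (-0.99, edgeR adjusted P = 0.0002312) and rose in A + T vs. T (0.66, edgeR adjusted P = 0.007545).

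Weaker calls in the transport list depended on single animals. Cd163, the hemoglobin receptor of macrophages, rose in T vs. S (0.51, edgeR adjusted P = 0.04811), passing in 3 of 9 fits without 1 animal, and was higher in A + T than in S (0.89, edgeR adjusted P = 0.01177), passing in 8 and lost without S 3 (0.0579). Lower in T than in S were Lrp1, the receptor for heme bound to hemopexin (-0.81, edgeR adjusted P = 0.03226, passing in 4 of 9), Scara5, a ferritin receptor (-0.78, edgeR adjusted P = 0.03859, passing in 2), and Steap3, the endosomal ferrireductase (-0.47, edgeR adjusted P = 0.02009, passing in 5).

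Of 21 genes that control hepcidin, 7 were called in T vs. S (33.3%, against 21.2% of all genes), 4 higher and 3 lower. Stat3, which carries the inflammatory signal to the hepcidin gene, rose (log2 fold change 1.05, edgeR adjusted P = 0.0001748), as did Socs3, its feedback inhibitor (1.65, edgeR adjusted P = 0.002957), Atoh8, a transcription factor (1.26, edgeR adjusted P = 0.00249), and Hfe, the hemochromatosis protein (0.77, edgeR adjusted P = 0.005123). Acvr1, a bone morphogenetic protein receptor, fell (-0.77, edgeR adjusted P = 0.001426), as did its ligand Bmp6 (-0.73, edgeR adjusted P = 0.01281, lost without S 2 or T 11) and the co-receptor Hfe2, hemojuvelin (-0.38, edgeR adjusted P = 0.01404, lost without S 5).

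The same list held 2 calls in A + T vs. T (9.52%, against 5.88% of all genes), both lower, and 4 in A + T vs. S (19%, against 8.31%). Stat3 fell in A + T vs. T (-0.44, edgeR adjusted P = 0.03095), as did Furin, the protease that cuts prohepcidin (-0.47, edgeR adjusted P = 0.02755), and each passed in 5 of 9 fits without 1 animal. Compared with S, A + T was higher for Stat3 (0.61, edgeR adjusted P = 0.008106), which passed without each animal in turn, and for Socs3 (1.21, edgeR adjusted P = 0.02919), which passed in 4 of 9. It was lower for Acvr1 (-0.47, edgeR adjusted P = 0.03236, passing in 4 of 9) and Bmp6 (-0.62, edgeR adjusted P = 0.04791, passing in 1).

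In heme metabolism, 4 of 16 genes were called in T vs. S (25%), near the 21.2% of all genes. Hmox1, heme oxygenase 1, which frees iron from heme, rose (log2 fold change 1.11, edgeR adjusted P = 0.005355) and was also higher in A + T than in S (0.96, edgeR adjusted P = 0.02492, lost without S 2, S 3 or A + T 21). Alas1, the first enzyme of heme synthesis, fell in T vs. S (-0.65, edgeR adjusted P = 0.01797, lost without S 2, S 5 or T 12), as did Alad, the next enzyme (-0.35, edgeR adjusted P = 0.02086), and Abcb10, a mitochondrial transporter (-0.33, edgeR adjusted P = 0.01493), each passing in 6 of 9. None of the 16 was called in A + T vs. T by edgeR, against 5.88% of all genes, or by DESeq2. A list of 16 is too short to tell 0 from that share. At an unadjusted edgeR P-value under 0.05 there were 3.

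Of 10 genes of ferritin turnover and iron regulatory protein control, edgeR called 0 in T vs. S, against 21.2% of all genes. DESeq2 called 0 too, and 3 had an unadjusted edgeR P-value under 0.05. A list of 10 is a weak basis for a difference from that share. Pcbp1, a chaperone that delivers iron to ferritin, was lower in A + T than in S (-0.36, edgeR adjusted P = 0.01828, passing in 5 of 9). Of 22 genes of mitochondrial iron and iron-sulfur clusters 2 were called in T vs. S (9.09%, against 21.2% of all genes): Slc25a28, mitoferrin 2, rose (0.55, edgeR adjusted P = 0.01988, passing in 6 of 9) and Glrx5, a glutaredoxin of cluster assembly, fell (-0.35, edgeR adjusted P = 0.009306). Of 4 other transcripts known to carry an IRE, edgeR called 0 in T vs. S, against 21.2% of all genes, and DESeq2 0. At an unadjusted edgeR P-value under 0.05 there was 1. For A + T vs. S edgeR called 0, against 8.31% of all genes, and DESeq2 called 2. The share of all genes called by DESeq2 is not given here, and a list of 4 is too short to compare with such shares.

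**Figure D5:**
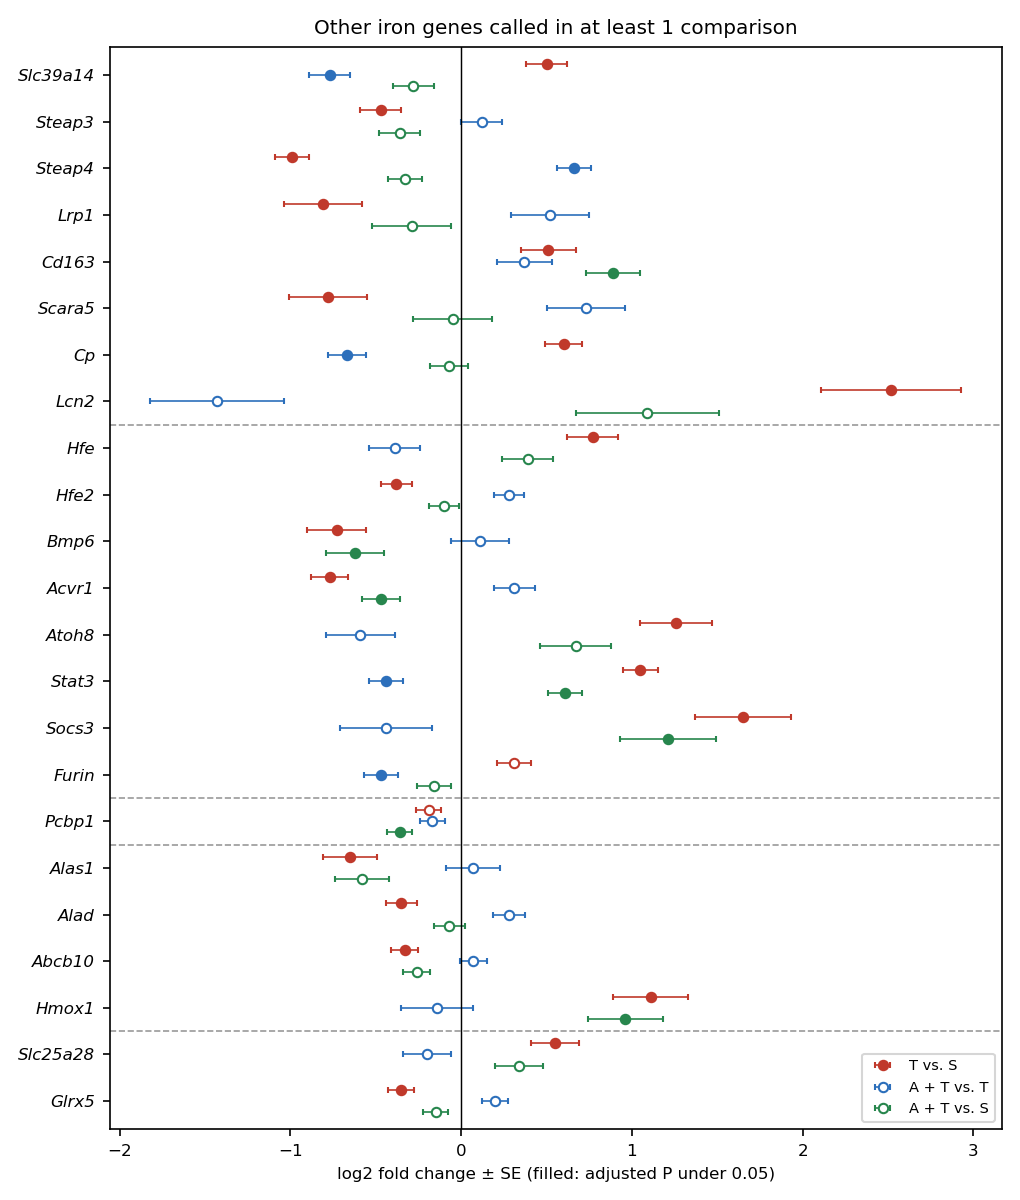
log2 fold change ± SE (horizontal axis) of the other iron genes called in at least 1 comparison, in T vs. S (red), A + T vs. T (blue) and A + T vs. S (green), filled where edgeR's adjusted P-value was under 0.05. Dashed lines part the gene lists, and Lcn2 lies farthest right, at 2.52.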

How the data were processed

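Total RNA of mouse hearts was made into mRNA libraries, sequenced as paired ends and aligned to mm10 with STAR by the authors, who counted unique pairs on RefSeq genes with strand. The deposited raw counts were used, and 3443 rows without a symbol were left out. The deposited log2 values equalled the log2 CPM minus a constant per gene (median SD 0.00239); their normalization is not given in the sources used here. Groups came from the sample labels. Genes under 0.5 CPM in more than 4 of 9 libraries were removed (526 genes). All libraries entered 1 fit with edgeR 4.0.16 (R 4.3.3), TMM scaling and the quasi-likelihood test, at an adjusted P-value under 0.05. With 3 animals a group, a permutation test of 1 gene cannot go below 0.1. A count of 3 equals 0.152 to 0.242 CPM before TMM scaling, for counting error only. Alternatives used DESeq2 1.42.0 and limma 3.58.1 among others. IREs and coordinates came from GENCODE M21 (GRCm38). Members and gene lists were chosen with earlier results of these data known; named genes are the members, up to 4 called genes in each direction of each other iron list and comparison, and the 3 genes most like each called member. The summed level of 1 marker list is not reported here.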

Additional observations from a re-analysis of the deposited data

How the results depend on the processing

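Of 27 log2 fold changes of the iron genes, 9 kept direction and call under every setting tried. Members called in T vs. S (3) numbered 1 with library size only, 4 without animals 12 and 22 and 1 to 3 without 1 animal. For A + T vs. T (1) they numbered 2 with DESeq2, with the thresholds of the study and without animals 12 and 22 (chosen after seeing the data), and 1 to 2 without 1 animal. For A + T vs. S (2) they numbered 0 with library size only, with only the groups compared and with limma on the deposited log2 values, 1 without the filter, without animals 12 and 22 and at the study's thresholds, and 0 to 2 without 1 animal. Other iron genes called in T vs. S (21) numbered 12 to 30 without 1 animal, 12 being without S 5, 13 without S 2. Those of A + T vs. T (5) numbered 3 with limma, 9 without animals 12 and 22 and 2 to 11 without 1 animal, 2 being without T 11, 3 without T 15 and 11 without A + T 22. Those of A + T vs. S (7) numbered 11 with DESeq2, 4 with library size only, 3 with limma and 1 to 8 without 1 animal, 1 being without S 3, 2 without S 2 or A + T 21 and 4 without S 5. The causes were not tested.

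Directions turned for uncalled values. In T vs. S, Hamp (0.33) was -0.70 with limma, -0.84 without animals 12 and 22 and -0.87 to 0.87 without 1 animal, and Trf was -0.47 to 0.12 without 1 animal. In A + T vs. T without animals 12 and 22, Fth1 was -0.14, Slc11a2 0 and Ireb2 0.11, and Ireb2 was 0.03 with upper-quartile scaling and 0.01 with library size only. Without 1 animal, A + T vs. T ranged from -2.79 to 0.53 for Hamp, -0.08 to 0.09 for Fth1, -0.17 to 0.06 for Slc11a2, -0.04 to 0.09 for Aco1 and -0.12 to 0.08 for Ireb2. In A + T vs. S, Trf was -0.02 without animals 12 and 22 and -0.02 to 0.38 without 1 animal, and the ranges were -2.44 to 0.13 for Hamp, -0.02 to 0.21 for Slc11a2 and -0.07 to 0.14 for Ireb2. Hamp has no value with at least 10 counts in every library, since T 15 holds 6. No paired analysis was possible because the groups share no animal numbers.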
